A study of Homo sapiens with 4 samples.

Results

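Human chromosome 19 gave 499 circular RNAs (circRNAs) from 221 host genes, of 1499 circles from 448 hosts listed for that chromosome and 45182 circles from 8230 hosts listed in all. Circles were chosen by their measured backsplice signal, which had to be above 0 in at least 2 of the 4 libraries, and the same condition kept 15309 circles genome-wide. The cells were Flp-In T-REx 293, a human embryonic kidney line with a fixed site for inducible transgenes, in which an inducible Flag-HA tagged DIS3 had been integrated. In the knock down (KD), clone 8, the endogenous DIS3 gene was disrupted with CRISPR/Cas9, and some DIS3 remained without induction. Controls and KD had 2 libraries each, labelled biological replicates and grown without doxycycline per the column names, from rRNA-depleted total RNA. The KD is a single clone, so the clone and the loss of DIS3 cannot be told apart. The labels do not say whether replicates came from separate cultures. The p-values therefore measure the spread between these libraries, partly pooled over features and, for linear signal, mostly so.

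A circRNA forms when the end of a downstream exon is joined back to the start of an upstream exon, which leaves a closed loop without free ends next to the linear RNA of the same gene, the host. DIS3 is a ribonuclease with exonuclease and endonuclease activity and a catalytic subunit of the nuclear RNA exosome, which degrades and trims many RNAs. Chromosome 19 is the human chromosome with the highest gene density, is rich in GC bases and Alu repeats, and carries large clusters of C2H2 zinc finger genes.

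Each circle was measured as FPBcirc, backsplice fragments per gigabase of mapped sequence. The linear RNA of its host was derived from the deposited ratio of circle to linear signal, CIRCscore, and is given in the same unit, FPB, without scaling to gene length. Depth differed between groups: 19.6 and 20.4 mapped gigabases in control replicates 1 and 2, and 165 and 47.9 in KD replicates 1 and 2. A single read was worth 0.0511, 0.0489, 0.00604 and 0.0209 FPB in that order. DIS3 could not be used to check the labels, since its 2 listed circles had 0 reads in both controls and its linear signal was 11.7 and 15.9 FPB in the KD libraries alone. Of 10 markers of the 293 line, 3 were listed as circle hosts (VIM, PAX2 and GATA3, all with values in KD libraries alone), and 0 of 7 markers of blood, liver, fibroblast and muscle were listed. A gene is listed only if it hosts a circle, so an unlisted marker says nothing about its RNA, and cell identity was not checked.

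With limma, changes passed the test in the linear RNA of hosts and not in the circles. Median log2 fold changes were alike, 0.68 for tested hosts and 0.63 for tested circles. DESeq2 called 16 circles higher (18%, against 7.13% over all chromosomes) and 1 lower (1.12%, against 2.68%). The difference in calls therefore does not show that circles changed less than hosts. Promoter stretches are shown for hosts past the threshold, the 3 with the largest rise in linear signal and the 2 with the largest fall. All of these are GC-rich. Each stretch holds the 250 bases before the RefSeq gene start (GRCh38.p14, plus strand for all), 5′ to 3′, with GC boxes (GGGCGG or its reverse complement CCGCCC, overlapping matches counted) in capitals. They lie at chr19:39342171-39342420 (SAMD4B), chr19:30225342-30225591 (ZNF536), chr19:37906958-37907207 (SIPA1L3), chr19:8444725-8444974 (HNRNPM) and chr19:1269082-1269331 (CIRBP).
SAMD4B: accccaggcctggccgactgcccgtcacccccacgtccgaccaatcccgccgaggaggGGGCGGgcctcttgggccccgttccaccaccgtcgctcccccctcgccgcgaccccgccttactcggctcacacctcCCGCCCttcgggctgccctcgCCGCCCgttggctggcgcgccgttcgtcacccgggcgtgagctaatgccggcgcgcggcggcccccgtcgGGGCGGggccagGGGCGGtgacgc
ZNF536: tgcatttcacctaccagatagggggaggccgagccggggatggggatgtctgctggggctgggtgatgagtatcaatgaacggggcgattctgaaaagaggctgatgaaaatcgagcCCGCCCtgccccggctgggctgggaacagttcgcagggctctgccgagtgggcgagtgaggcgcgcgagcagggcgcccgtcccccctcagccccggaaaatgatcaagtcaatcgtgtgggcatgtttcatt
SIPA1L3: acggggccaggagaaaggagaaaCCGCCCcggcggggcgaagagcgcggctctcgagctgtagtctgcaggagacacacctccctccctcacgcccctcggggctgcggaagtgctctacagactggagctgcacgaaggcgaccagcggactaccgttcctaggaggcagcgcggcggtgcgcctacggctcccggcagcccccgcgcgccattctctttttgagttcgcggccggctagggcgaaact
HNRNPM: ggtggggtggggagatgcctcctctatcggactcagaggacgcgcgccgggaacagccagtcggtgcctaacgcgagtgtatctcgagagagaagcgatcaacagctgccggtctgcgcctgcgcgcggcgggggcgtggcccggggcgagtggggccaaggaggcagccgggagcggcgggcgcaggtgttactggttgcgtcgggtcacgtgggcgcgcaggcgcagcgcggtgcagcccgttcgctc
CIRBP: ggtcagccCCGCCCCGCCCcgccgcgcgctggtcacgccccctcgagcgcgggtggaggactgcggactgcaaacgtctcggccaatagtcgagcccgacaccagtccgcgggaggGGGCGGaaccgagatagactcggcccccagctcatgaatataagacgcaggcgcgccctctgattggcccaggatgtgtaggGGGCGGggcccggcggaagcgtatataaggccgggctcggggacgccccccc
GC boxes numbered 5 in SAMD4B, 1 in ZNF536, 1 in SIPA1L3, 0 in HNRNPM and 4 in CIRBP, so their number did not separate the hosts that rose from those that fell. GC content was 78%, 61.6%, 68%, 71.6% and 71.2% in that order. RefSeq promoters were found for 182 of the 221 hosts. Among these the median GC content was 66%, against 66.4% for tested hosts of all chromosomes and 58% for all 27305 promoters in the table. A GC box was present in 77.5% of them, in 71.2% of tested hosts and in 42.3% of all promoters. The letters TATAAA or TTTATA were in 0% of the chromosome 19 host promoters, in 3.97% of tested hosts and in 11.1% of all promoters. A match of letters is a description of the window.

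Detection, which chose the circles, is described first and was not tested. Of the 499 circles, 85 (17.0%) had reads in all 4 libraries, 184 in both groups but in fewer than 4 libraries, 227 (45.5%) in both KD libraries and no control, and 3 in both controls and no KD library. Over all chromosomes, 17.1% of the 15309 circles were read in all 4 libraries and 38.1% in the KD alone. The 304 circles just inside the condition, read in exactly 2 libraries, had a median of 9 reads in total, and the 1000 chromosome 19 circles just outside it, read in 1 library, had a median of 2. The circles were held by 1145, 1160, 13032 and 3977 backsplice reads in control replicates 1 and 2 and KD replicates 1 and 2, and their summed FPBcirc was 58.6, 56.7, 78.8 and 83.0. Depth moved with detection, and its part in the KD-only pattern was not tested. Of the 227 circles read in the KD alone, 66 had a KD mean above 0.0750 FPB, the level that 0 reads in both controls together allow (3 reads over their pooled depth, counting error only). That is 29.1%, against 22.8% of the 5839 circles of all chromosomes read in the KD alone, and no test was made.

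The circle with the largest such excess came from CHAF1A (chr19:4405912-4409759), a subunit of the histone chaperone that assembles chromatin behind the replication fork. It had 98 and 28 reads in the KD libraries and 0 in both controls, at least 7.84-fold over the pooled control limit. Circles of PPP6R1, a regulatory subunit of protein phosphatase 6, and UBA2, a subunit of the enzyme that activates SUMO, were at least 5.04-fold and 4.83-fold over it. KDM4B, a histone lysine demethylase, and UHRF1, a reader of hemimethylated DNA, followed with circles at least 4.60-fold and 3.95-fold over it. By limma on FPBcirc the CHAF1A, PPP6R1 and UBA2 circles did not pass, with adjusted p of 0.173, 0.284 and 0.307. Those of KDM4B and UHRF1 were not tested. The tested circles met the mean filter through the KD libraries alone, where they are high, so these p-values are descriptions. The 3 circles read in controls alone were from HNRNPM (1 and 16 reads), TPM4 (5 and 2 reads) and ENSG00000267552 (1 and 8 reads), the first 2 of which also had a lower linear signal in the KD. Reads of the HNRNPM circle were almost all in control replicate 2.

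Chromosome 19 circles were short. Their span from first to last base had a median of 3306 bases (182 to 104865), against 9285 for all retained circles and 6152 to 16026 for the medians of the other chromosomes. Spans under 1000 bases made up 25.5% of them, against 9.16% genome-wide. Hosts with a single retained circle made up 55.2%, against 40.8% genome-wide. Of 485 circles whose host matched a RefSeq gene, 483 lay inside that gene, and the median circle covered 7.78% of it.

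UBA2 stood apart with 29 retained circles, built from 12 first bases and 6 last bases between 34430576 and 34467014. Its summed FPBcirc was 6.80 and 6.46 in the controls and 5.74 and 9.04 in the KD libraries, which straddle the controls. Among its 12 tested circles, 5 had a log2 fold change above 0. KDM4B and LSM14A, a P-body protein, had 11 circles each, and SIPA1L3, a relative of Rap GTPase-activating proteins, had 10. Summed FPBcirc of the retained KDM4B circles was 0.614 and 0.636 in the controls and 1.89 and 1.54 in the KD libraries. These sums use the values that chose the circles, some of them read in the KD alone, and were not tested. CEP89, a centrosomal protein, DHX34, an RNA helicase of nonsense-mediated decay, and RHPN2 had 8 each.

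Linear signal could be compared for 74 of the 221 hosts, those with a value in all 4 libraries, and 147 were not tested. In limma, with p-values adjusted over all 2547 hosts tested on all chromosomes, 37 of the 74 were higher in the KD (50%, against a background of 10.8%) and 4 were lower (5.41%, against 23.8%). The median log2 fold change was 0.68 for chromosome 19 and -0.21 for all tested hosts, and 59 of 74 (79.7%) were above 0, against 38.1%. At an unadjusted p under 0.05 the counts were 43 higher (58.1%, against 14.1%) and 4 lower (5.41%, against 29.9%). Both KD libraries lay above both controls for 50 hosts (67.6%, against 25.5%) and below both for 7 (9.46%, against 45.1%). In this bulk RNA, fewer cells with an RNA and less of it per cell cannot be told apart. The hosts were tested in the libraries that also chose the circles, but by a value that the choice did not use.

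The same tilt appeared for each KD library against each control. The median log2 ratio over chromosome 19 hosts was 0.96 and 0.63 for KD replicate 1 over control replicates 1 and 2, and 0.74 and 0.40 for KD replicate 2, while the medians over all hosts were -0.28, -0.44, 0.01 and -0.14. Replicates differed from each other too. Control replicate 1 over control replicate 2 gave -0.27 on chromosome 19 and -0.16 over all hosts, and KD replicate 1 over KD replicate 2 gave 0.17 and -0.29. Without control replicate 1 the hosts called higher numbered 12 (16.2%, against 2.98% of all tested hosts), and without control replicate 2 they numbered 21 (28.4%, against 5.03%). Hosts called lower numbered 1 without control replicate 2 (1.35%, against 6.64%) and 2 without KD replicate 1 (2.7%, against 14.7%). The chromosome 19 median stayed above 0 in each. Of 23 chromosomes with at least 20 tested hosts, chromosome 19 had the highest median, the others lying between -0.64 and 0.19, and the highest share of hosts higher in the KD, the others lying between 2.38% and 23.3%.

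**Figure D1:**
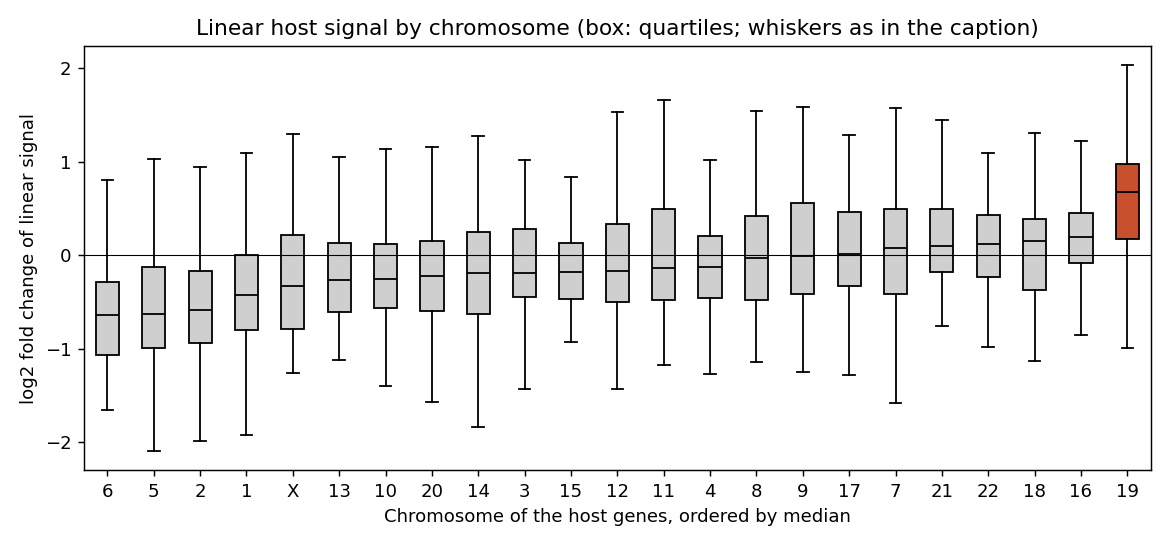
Log2 fold change of linear host signal (KD over control, vertical axis) for each chromosome with at least 20 tested hosts, ordered by median; boxes give the quartiles and median, whiskers reach the last host within 1.5 box heights, and hosts beyond are not drawn. The chromosome 19 box (median 0.68, quartiles 0.18 and 0.98) is the only one whose lower quartile lies above 0.

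The share of the whole signal moved the same way. Chromosome 19 held 2.52% and 2.26% of all backsplice signal in the controls and 4.51% and 3.64% in the KD libraries, means of 2.39% ± 0.183 and 4.08% ± 0.615 (SD, n = 2 each). Its share of the linear signal of tested hosts was 4.27% and 4.35% in the controls and 7.15% and 5.88% in the KD libraries (4.31% ± 0.0564 and 6.52% ± 0.901, SD, n = 2 each). Neither pair of groups overlapped, and with 2 libraries a group an exact two-sided permutation test cannot go below 0.333, so none was used. The ratio of KD to control share was 1.70 for backsplice signal, against 0.692 to 1.57 on the other chromosomes with at least 20 tested hosts, and 1.51 for linear signal, against 0.725 to 1.32.

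SAMD4B, an RNA-binding protein of the Smaug family, had the largest rise among hosts. Its linear signal was 7.79 and 8.35 FPB in the controls and 36.9 and 29.6 in the KD libraries, a log2 fold change of 2.03 ± 0.27 (SE; adjusted p = 3.75e-12). ZNF536, a zinc finger repressor of neuronal genes, went from 1.06 and 0.893 FPB to 4.47 and 3.66, a log2 fold change of 2.02 ± 0.28 (adjusted p = 1.29e-10). In both, the lower KD library was over 3 times the higher control. SIPA1L3 had 3.41 and 4.85 FPB in the controls and 12.7 and 10.5 in the KD libraries (log2 fold change 1.50 ± 0.26, adjusted p = 6.08e-07). KDM4B had 2.75 and 3.18 against 9.48 and 7.36 (1.49 ± 0.27, adjusted p = 1.43e-06). The groups were apart in each of these hosts, with KD replicate 1 the higher of the KD pair.

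PRR12, a nuclear proline-rich protein, rose from 4.96 and 5.82 FPB to 15.9 and 12.9 (log2 fold change 1.41, adjusted p = 2.04e-06). NFIX, a transcription factor of the nuclear factor I family, rose from 2.91 and 2.43 FPB to 7.92 and 6.23 (log2 fold change 1.39, adjusted p = 7.59e-06). ZNF850, a zinc finger gene, had 5.83 and 15.2 FPB in the controls and 21.7 and 27.9 in the KD libraries (1.39, adjusted p = 1.64e-05). Its controls differed by more than those of the other rising hosts named, and its call was lost without control replicate 1 (log2 fold change 0.70, adjusted p = 0.243), without either KD library (1.57 and 1.21, adjusted p = 0.458 and 0.469) and with libraries centred on their median (1.56, adjusted p = 0.0757). TNPO2, a nuclear import receptor, SMG9, a subunit of the SMG1 kinase complex of nonsense-mediated decay, and ENSG00000267698 had log2 fold changes of 1.24, 1.23 and 1.23. Over all 37 hosts the ratio of group means ran from 1.59 to 4.16, and the groups did not overlap in any of them.

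**Figure D2:**
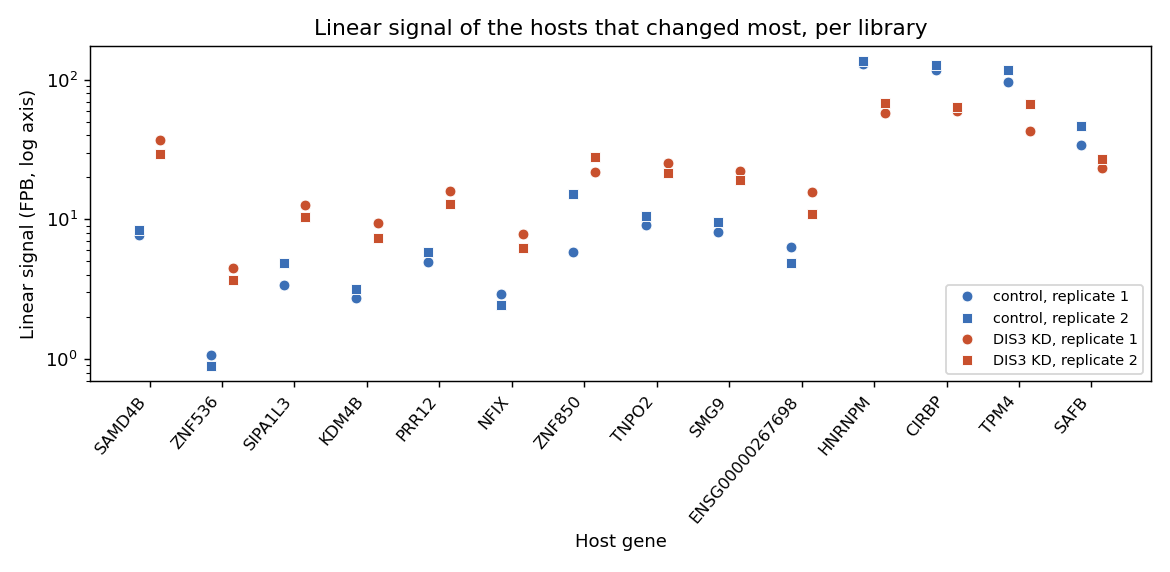
Linear signal in FPB (log axis) of the 10 hosts with the largest rise and of the 4 called lower, 1 point per library, controls left and KD right of each gene's tick. The 10 rising hosts have both KD points above both control points, and HNRNPM, CIRBP, TPM4 and SAFB have both below.

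The 4 hosts called lower code for proteins that bind RNA or actin. HNRNPM, a splicing regulator, had 129 and 136 FPB in the controls and 57.5 and 68.3 in the KD libraries (log2 fold change -1.08 ± 0.25, adjusted p = 0.000164). CIRBP, the cold-inducible RNA-binding protein, had 118 and 127 against 59.6 and 63.9 (-0.99 ± 0.25, adjusted p = 0.000678). TPM4, an actin-binding tropomyosin, had 96.4 and 118 against 43.1 and 67.3 (-0.98 ± 0.25, adjusted p = 0.000875). The groups were apart in all 3, and the KD values of TPM4 spread most. SAFB, a scaffold attachment factor that binds DNA and RNA, had 33.9 and 46.5 against 23.2 and 27.3 (-0.66 ± 0.27, adjusted p = 0.0432). Its call was lost without either control or KD replicate 1, that of CIRBP without control replicate 2, and that of TPM4 without control replicate 2 or KD replicate 1. SAFB and its close paralog SAFB2 lie side by side, and reads could have been split between them, as among zinc finger genes.

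A few hosts had values that differed widely within a group. Linear signal of ZFP30 was 15.3 and 18.2 FPB in the controls but 2.65 and 17.4 in the KD libraries, and that of ENSG00000283515 was 0.0852 and 8.56 in the controls and 0.260 and 12.1 in the KD libraries. Neither passed the test, and no direction can be read from them. The ratio of the higher to the lower replicate was 1.24 in the controls and 1.20 in the KD for the median host.

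The hosts are described next by what the genes do, beside the 50% higher, 5.41% lower and median of 0.68 of all 74 tested hosts of the chromosome and the 10.8% and 23.8% of all chromosomes. No list was tested, and a list near the chromosome's own values says nothing about its genes. Kinase, phosphatase and signalling hosts had 6 of 8 higher (75%) and 0 lower, and their log2 fold changes had a median of 0.94. With 8 hosts, this is 2 more than the share of the chromosome gives. Besides SIPA1L3 these included MYO9B, an unconventional myosin (log2 fold change 1.07), and PPP1R12C, a regulatory subunit of myosin phosphatase (1.05). Chromatin and transcription hosts had 7 of 14 higher, the chromosome's own 50%, and 1 lower (median 0.65), among them KDM4B, NFIX and KMT2B, a histone methyltransferase (1.06). DNMT1, the maintenance DNA methyltransferase, lies between such hosts and had 37.6 and 47.1 FPB against 40.7 and 37.8, with overlapping groups.

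RNA processing and translation hosts had 5 of 12 higher (41.7%, near the 50% of the chromosome) and 2 lower (median 0.43), with SAMD4B and SMG9 among the first and HNRNPM and CIRBP the second. DHX34 had 2.27 and 3.04 against 6.30 and 4.95 (1.08, adjusted p = 0.00068). HNRNPUL1, an RNA-binding protein, had a log2 fold change of 0.17 and did not pass. DNA replication and repair hosts had 3 of 6 higher and 0 lower (median 0.69), the share and median of the chromosome, led by LIG1, the replicative DNA ligase, at 0.97. BABAM1, a subunit of the BRCA1-A complex, and SMARCA4, a chromatin remodelling ATPase, were at 0.77 and 0.76.

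Ubiquitin and protein turnover hosts also had the chromosome's share and median, with 3 of 6 higher and 0 lower (median 0.68), namely FBXO17, an F-box protein, at 0.98, BABAM1, and WDR62, a spindle pole scaffold rather than a turnover enzyme, at 0.85. UBA2 and SAE1, the partners of the SUMO activating enzyme, did not pass. Linear UBA2 was 154 and 143 FPB in the controls and 104 and 149 in the KD libraries, and linear SAE1 56.5 and 66.4 against 48.8 and 73.2, with overlapping groups in both. Trafficking and cytoskeleton hosts had 1 of 4 higher (25%), CEP89, and 1 lower, TPM4 (median 0.38). The 15 tested hosts of no list had 9 higher and 0 lower (median 0.83).

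Zinc finger hosts, the family for which the chromosome is known, had a lower median than the rest of it. They numbered 35 with 61 circles. Of 14 tested, 5 were higher and none lower, and the median change was 0.20 on the log2 scale. The other 60 tested hosts of chromosome 19 had 32 higher and 4 lower and a median of 0.76. Zinc finger hosts of other chromosomes had 12 of 39 higher, 8 lower and a median of 0.01, and the remaining hosts of other chromosomes 226 of 2434 higher, 595 lower and a median of -0.23. These are counts and medians, and no test of the difference was made. After ZNF536 and ZNF850, the smallest p belonged to ZNF567, with 5.57 and 3.96 FPB in the controls and 10.8 and 10.0 in the KD libraries (1.14, adjusted p = 0.000164). ZNF585B and ENSG00000267360 hold circles that share an end, so their signals cannot be separated.

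Along the chromosome the rise was spread over most of its length, and was weakest in the first 10 megabases. The widest stretch without a retained circle ran 8.15 megabases, from ATP13A1 (last base 19646347) to LINC02987 (first base 27797754), and spans the centromere. Before it, 15 of 33 tested hosts were higher and 4 lower, with a median of 0.60, and after it 22 of 41 were higher and 0 lower, with a median of 0.84. All 4 hosts called lower therefore lie on the short arm. In windows of 5 megabases, 8 of the 9 with at least 3 tested hosts had a median above 0. The exception, from 5 to 10 megabases, held HNRNPM and SAFB and had a median of -0.30 over 6 hosts. From 0 to 10 megabases, 2 of 12 tested hosts were higher and 3 lower (median 0.27). From 10 to 20 megabases, 13 of 21 were higher and 1 lower (median 0.76). Over all chromosomes the shares were 10.8% higher and 23.8% lower. The window from 35 to 40 megabases had the most tested hosts, 16, of which 10 were higher (median 0.90), and it also held 15 of the zinc finger hosts.

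The longest unbroken run above 0 held 11 hosts, from TMEM38A, a cation channel of the endoplasmic reticulum, to ZNF536 across the centromere. The first host of the chromosome, MIER2, a transcriptional corepressor, had 6.08 and 6.91 FPB in the controls and 11.3 and 8.49 in the KD libraries (log2 fold change 0.59, adjusted p = 0.0632). FKBP8, an immunophilin of the mitochondrial surface, had 64.0 and 94.4 FPB against 158 and 120 (0.82, adjusted p = 0.00423), and FARSA, the alpha subunit of phenylalanyl-tRNA synthetase, 56.0 and 71.2 against 105 and 86.6 (0.59, adjusted p = 0.055). Both KD values were above both controls in these 3 hosts, of which FKBP8 alone passed the test.

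**Figure D3:**
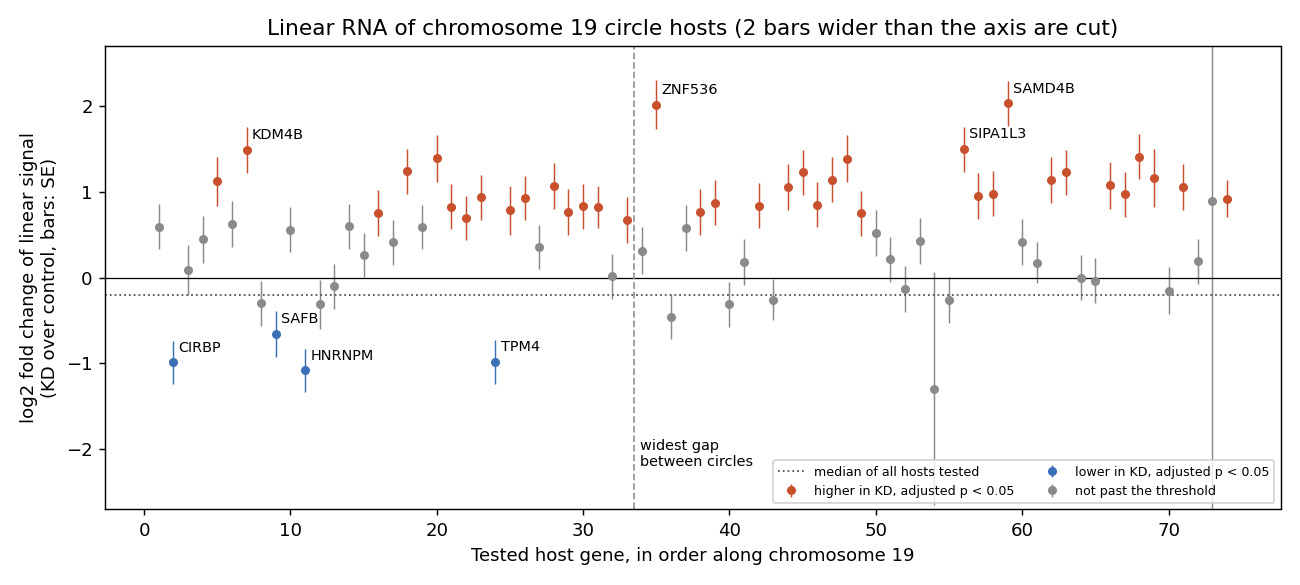
Log2 fold change of linear signal (KD over control, vertical axis; bars are SE) of the 74 tested hosts in their order along chromosome 19; the dashed line marks the 8.15 megabase gap and the dotted line the median of all tested hosts (-0.21). The 37 hosts called higher are spread on both sides of the gap, and the 4 called lower lie before it.

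Gene length and promoter GC content were weakly related to the changes. Host genes had a median length of 29911 bases, and over the 69 tested hosts with a length the Spearman correlation of length with the linear log2 fold change was 0.18 (Pearson 0.29). Over 2500 hosts of all chromosomes it was 0.05 (Pearson 0.03). For promoter GC content the Spearman correlation was 0.17 over 58 tested hosts of chromosome 19 (Pearson 0.16). Over 2092 hosts of all chromosomes it was 0.12 (Pearson 0.13). These correlations are across genes that share the same 4 libraries, and are given as descriptions.

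Backsplice signal was tested for 89 circles from 58 hosts, those with a mean of at least 0.174 FPB, and all 89 tested circles of the chromosome met the detection condition. With limma, 0 of 89 were higher and 0 lower at an adjusted p under 0.05, against a background of 0.0824% and 0.453%. At an unadjusted p under 0.05, 12 were higher (13.5%, against 5.11%) and 5 lower (5.62%, against 14%). On the recovered reads edgeR called 0 higher and 0 lower (over all chromosomes 0.0412% and 0%), and DESeq2 called 16 higher (18%, against 7.13%) and 1 lower (1.12%, against 2.68%). The median log2 fold change was 0.63, against -0.33 over all 2427 circles tested, and 57 of 89 (64%) were above 0, against 40.4%. Both KD libraries lay above both controls for 35 circles (39.3%, against 16.2%) and below both for 23 (25.8%, against 38.4%). The mean that set the filter includes the libraries where a circle is high, so these shares are descriptions.

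The circle nearest to the threshold came from AKT2 (chr19:40255158-40265351), a kinase of insulin signalling. It had 6 and 14 reads in the controls and 572 and 156 in the KD libraries, or 0.307 and 0.685 against 3.46 and 3.26 FPB (log2 fold change 2.77 ± 0.44, adjusted p = 0.0533). The KD libraries were alike and well above the controls, although linear AKT2 was 82.3 and 33.1 FPB in them and 35.1 and 44.0 in the controls. A FARSA circle (chr19:12928342-12928847) had 0.563 and 0.294 FPB against 2.39 and 2.94 (2.60 ± 0.42, adjusted p = 0.0577). Groups did not overlap, and linear FARSA also had both KD values above both controls.

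FKBP8 gave 3 retained circles, of which 2 of unlike behaviour lie within a few kilobases. The one at chr19:18537601-18538436 had 0.511 and 0.440 FPB in the controls and 2.24 and 1.57 in the KD libraries (log2 fold change 1.90 ± 0.38, adjusted p = 0.0727). The other, at chr19:18539371-18539720, had the highest mean of all retained circles of the chromosome, with 3.38 and 3.38 FPB against 2.75 and 2.84 (-0.27, adjusted p = 0.594). One was higher and the other lower in both KD libraries. The remaining FKBP8 circle, chr19:18537601-18538433, shares the first base of the higher one and had a log2 fold change of 1.41. Circles of MYO9B and ECSIT, an adaptor of Toll-like receptor signalling, had log2 fold changes of 1.59 ± 0.48 and 3.16 ± 0.96 with adjusted p of 0.146 and 0.148. The ECSIT circle had 3 and 0 reads in the controls.

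URI1, a prefoldin-like chaperone subunit, gave 3 of the 6 circles with the smallest p among those lower in the KD, all ending at base 30012531. The circle from 29985223 had 1.13 and 1.76 FPB in the controls and 0.338 and 0.376 in the KD libraries (log2 fold change -1.88 ± 0.42, adjusted p = 0.0909). That from 30005361 had 1.02 and 0.783 against 0.169 and 0.188 (-2.12 ± 0.49, adjusted p = 0.0918). That from 29971193 had 1.18 and 1.37 against 0.320 and 0.647 (-1.41 ± 0.45, adjusted p = 0.166). All 3 were below the controls in both KD libraries, and as they share an end they are not independent. Of 5 tested URI1 circles, 1 was above 0, chr19:29971193-29986417 (log2 fold change 1.44). It shares its first base with the falling circle from 29971193, and it did not pass the test. Linear URI1 overlapped between groups, with 13.4 and 29.0 FPB against 20.9 and 28.9.

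The SAFB2 circle at chr19:5604583-5604936 was among the best read in the controls, with 61 and 67 reads there and 129 and 66 in the deeper KD libraries. In FPB this was 3.12 and 3.28 against 0.780 and 1.38 (log2 fold change -1.59 ± 0.37, adjusted p = 0.0941), without overlap. A longer SAFB2 circle with the same last base (chr19:5598793-5604936) had 0 and 3 reads in the controls and 46 and 22 in the KD libraries, or 0 and 0.147 against 0.278 and 0.459 FPB (adjusted p = 0.354). The 2 circles thus lay on opposite sides of the controls, and neither passed the test. A UBA2 circle (chr19:34450265-34464131) had 0.972 and 0.734 FPB against 0.212 and 0.438, and the ENSG00000268173 circle (chr19:18175040-18175697) 0.818 and 0.881 against 0.544 and 0.355. Their adjusted p were 0.215 and 0.294. Of 8 circles with the highest mean FPBcirc, MLLT1 (chr19:6230570-6270759), a YEATS domain protein of the super elongation complex, had 0.767 and 0.685 against 1.76 and 1.46 (1.11, adjusted p = 0.166).

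**Figure D4:**
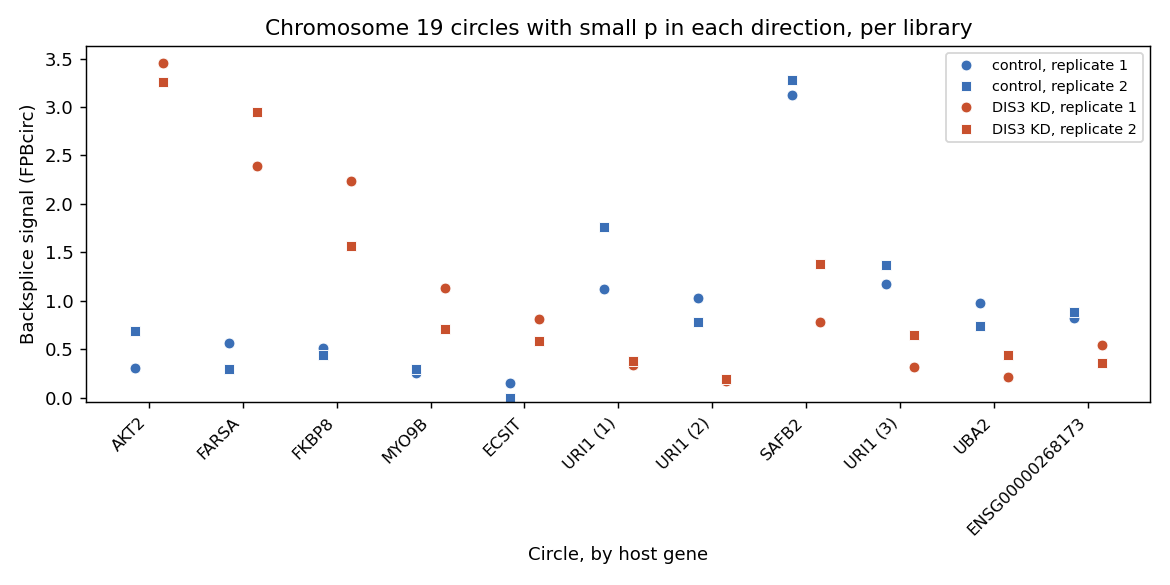
FPBcirc per library for circles with the smallest p, 5 shown as higher and 6 as lower, controls left and KD right of each tick; numbers after URI1 tell its 3 circles apart, in the order given in the text. Groups are apart in each circle shown, from AKT2 (0.307 and 0.685 against 3.46 and 3.26) to SAFB2 (3.12 and 3.28 against 0.780 and 1.38), and none passed an adjusted p of 0.05.

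Relative to linear RNA, no circle of the chromosome passed the test. CIRCscore, the ratio of a circle to its host, was tested for 65 circles, and with limma 0 were higher and 0 lower at an adjusted p under 0.05, against 0% and 0.11% of all 1823 tested. At an unadjusted p under 0.05, 3 were higher (4.62%, against 2.96%) and 13 lower (20%, against 17.9%), and 13 and 26 did not overlap (20%, against 11.6%, and 40%, against 42.6%). The median log2 fold change was -0.21, against -0.42 over all tested circles. Shares of circles close to the background carry no statement about the chromosome.

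ZNF577, a zinc finger gene with 6 circles, had the smallest p. CIRCscore of its circle at chr19:51877282-51880877 was 1.98 and 2.88 in the controls and 0.567 and 0.689 in the KD libraries (log2 fold change -1.93 ± 0.38, adjusted p = 0.142), and that of the circle at chr19:51860904-51880877 was 0.860 and 1.32 against 0.336 and 0.320 (-1.69 ± 0.38, adjusted p = 0.142). The first circle thus exceeded its linear RNA in the controls and not in the KD libraries. Its FPBcirc was 1.07 and 1.08 against 0.568 and 0.730, while linear ZNF577 was 0.537 and 0.367 FPB in the controls and 1.01 and 1.06 in the KD libraries (log2 fold change 1.16 ± 0.34, adjusted p = 0.00346). Linear ZNF577 passed the test and the circle by FPBcirc did not (log2 fold change -0.71, adjusted p = 0.324). The 2 circles share a last base and are not independent. Of 3 ZNF577 circles tested by FPBcirc, 1 was above 0, chr19:51860904-51877377 (log2 fold change 1.66), and it did not pass the test. It shares its first base with the falling circle from 51860904. Another ZNF577 circle, chr19:51860904-51886912, was read in the KD alone, with 31 and 13 reads. The URI1 circles from 29985223, 30005361 and 29971193 had log2 fold changes of CIRCscore of -1.97, -2.06 and -1.56, and the ENSG00000268173 circle -1.58.

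In the other direction the AKT2 circle had a CIRCscore of 0.00902 and 0.0158 in the controls and 0.0421 and 0.0986 in the KD libraries (log2 fold change 2.07 ± 0.57, adjusted p = 0.16). FARSA was at 1.52 ± 0.48 (adjusted p = 0.185). ARHGAP35, a GTPase-activating protein whose linear log2 fold change was 0.00, had a circle at 1.08 ± 0.46 (adjusted p = 0.249), and the FKBP8 circle that was higher by FPBcirc was at 0.75. UBA2 circles at chr19:34431861-34438766 and chr19:34430576-34434968 were at 0.76 and 0.69 and share no boundary with the lower UBA2 circle. The UBA2 circle read in the KD alone, chr19:34450265-34467014, does share the first base of that lower circle. Its log2 fold change of FPBcirc was 3.41, and it did not pass the test. Circles of a single host thus pointed in both directions in UBA2, as they did by FPBcirc in FKBP8, SAFB2, URI1 and ZNF577.

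For 77 circles from 46 hosts both changes were measured. Circle and host were both above 0 for 34 and both below for 14, while 18 circles were below 0 with a host above it and 11 the reverse. The Pearson correlation of the log2 fold changes was 0.31 (Spearman 0.30), against 0.36 (Spearman 0.40) over 2290 circles of all chromosomes. It is a description across circles that share libraries and, in part, hosts.

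**Figure D5:**
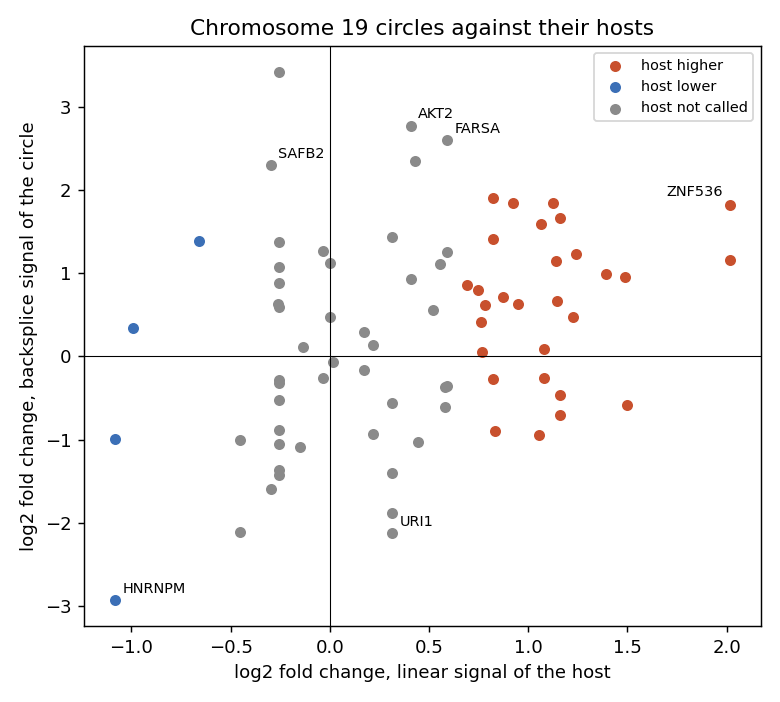
Log2 fold change of FPBcirc (vertical axis) against log2 fold change of the linear signal of the host (horizontal axis) for 77 circles of chromosome 19, coloured by the test of the host. Most points lie right of 0, 34 of them also above 0 on the vertical axis, and AKT2, FARSA and URI1 lie far from 0 on the vertical axis with hosts that did not pass the test.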

How the data were processed

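Per the submitters' processing notes, the tools included bcl2fastq 2.20 and Bowtie2 2.3.5 with build hg38. The program that called circles is not given. FPBcirc as deposited is a backsplice signal of whole fragments scaled to gigabases mapped, per the file headers and values. CIRCscore as deposited by the authors is the ratio of that signal to linear host signal. Per the labels' protocols the kit keeps strand, and whether counting used strand is not given. Positions are those of the deposited table, with the first base counted from 1, and 7 emptied lines were skipped.

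All nonzero FPBcirc values (100%) came out as whole reads at the step of each library, within 0.001 of a read, so 48895, 55193, 352471 and 121507 backsplice reads were recovered for control replicates 1 and 2 and KD replicates 1 and 2. Reads carry no molecular identifiers, so limits from counts cover counting error only. Linear signal was (FPBcirc + 0.01) / CIRCscore - 0.01, taken as the median over the circles of a host, which agree in at least 99.96% of hosts. It exists only where a circle was read.

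The test was limma 3.58.1 (R 4.3.3), run on log2(value + pseudocount) with trend and robust moderation, two-sided, with Benjamini-Hochberg adjustment over all features of all chromosomes and a threshold of 0.05. Fold changes on this scale understate the change of low values. For linear signal this moderation gave most hosts of the chromosome a similar SE, such as 0.272 for ZNF850 and 0.241 for HNRNPUL1. Control values were 5.83 and 15.2 FPB in ZNF850 and 111 and 137 in HNRNPUL1. Those p-values thus rest mostly on spread pooled over hosts, and little on the spread of each host. The pseudocount was 0.0349 FPB, the median value of 1 read, and 0.00448 for CIRCscore (percentile 5 of its values). Circles needed a mean of 5 times the FPB pseudocount, and CIRCscore and linear signal a value in all 4 libraries.

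Named were members past the threshold, filled to 6 per direction by the smallest p among circles whose groups do not overlap, the 10 largest changes among hosts, the 8 circles with the highest mean, the hosts with most circles, the first and last host, 3 hosts per list and the host with the highest linear signal of each window. DNMT1, DHX34, ZFP30, ENSG00000283515, the longer SAFB2 circle and the circles read in 1 group alone were named after their values were seen. Some genes that the rule names are not reported here. The members, the 7 host lists and the tests were chosen with earlier results of these data known. Host genes were matched to RefSeq (GRCh38.p14) by symbol for 213 of 221. Alternatives were edgeR 4.0.16, DESeq2 1.42.0, other pseudocounts, filters and centring, a replicate block and leaving out each library. Python 3.11.15 with pandas 2.3.3 and matplotlib 3.10.9 was used for the rest.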

Additional observations from a re-analysis of the deposited data

How the results depend on the processing

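The replicate numbers only name the samples: deviations of same-numbered libraries correlated at 0.0029 for FPBcirc, 0.0271 for CIRCscore and 0.0896 for linear signal, with 2 pairs. With the replicate number as a block, 5 circles were called higher and 2 lower by FPBcirc against 0 and 0 (5.62% and 2.25%, where all tested circles gave 1.48% and 4.04%), and 45 hosts higher and 4 lower by linear signal against 37 and 4 (60.8% and 5.41%, all hosts 14.6% and 30.9%). The number of circles called higher by FPBcirc was 2 with the pseudocount doubled (2.25%, all circles 0.288%), 7 of 46 with a filter of 10 times the pseudocount (15.2%, all 2.64%), 16 with DESeq2 (18%, all 7.13%) and 0 to 26 with a library left out. The upper end, without control replicate 1, is 29.2%, where all circles gave 13.2%. The number lower was 4 with that filter (8.7%, all 13.6%), 1 with DESeq2 (1.12%, all 2.68%) and 0 to 7 with a library left out (at most 7.87%, all 18.1%). By CIRCscore, leaving out a library gave 0 to 2 higher (at most 3.08%, all 2.47%) and 0 to 13 lower (at most 20%, all 12.5%). For linear signal, 18 hosts were higher and 2 lower without trend and robust moderation (24.3% and 2.7%, all hosts 4.79% and 8.99%). Leaving out a library gave 12 to 42 higher (16.2% to 56.8%, all 2.98% to 11.9%) and 1 to 6 lower (1.35% to 8.11%, all 6.64% to 36.8%), with the lowest counts without control replicate 1 and control replicate 2. Of the 50 hosts with at least 10 control backsplice reads, an alternative chosen after seeing the data, 24 were higher. No share over all chromosomes stands beside this count, so it cannot be set against a background. With all hosts of each library the linear share was 5.33% in the controls and 10.2% in the KD. The cause of these shifts was not tested. Centring libraries on their median moved the median of all hosts from -0.21 to -0.03 and that of chromosome 19 to 0.86, with 44 higher and 4 lower (59.5% and 5.41%), and over all chromosomes 559 higher and 595 lower against 275 and 607 (21.9% and 23.4%). For FPBcirc it moved the median of all circles by 0.49. Among the values of named circles and hosts, 348 kept their direction and side of the threshold, 54 passed it, 14 no longer did and none changed sign. At the control depth 1 read was worth about 0.05 FPB, so circles below that level could go unread, and 2 libraries a group limit every test.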
